A study of Canis lupus familiaris with 5 samples.

Results

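The genes described here encode respiratory complex III, cytochrome c, complex IV (cytochrome c oxidase) and ATP synthase, with a few assembly factors and the ATP synthase inhibitor. They are all probe sets that the platform annotation pairs with exactly 1 gene symbol starting with UQCR, COX or ATP5, or with CYC1 or CYCS. This gave 80 probe sets for 42 genes, of 3724 probe sets with 1 symbol (2416 genes) and 4653 in the whole table. Another 2 probe sets name COX20 together with a second gene and were left out. RNA came from canine myocardium, 2 control samples (titled Con, replicates 1a and 2a) and 3 samples of congestive heart failure (titled Fail, replicates 1a, 1b and 2a), 1 array each. Apart from control 1a, whose source was not described, each sample was a pool of RNA from 3 dogs made before labelling. The sources used here give no age, sex, strain, heart region, drug or way of inducing failure for either group. Whether failing 1a and 1b are separate pools is not stated either. The spread behind every p-value is thus that of these 5 arrays and may be technical.

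Complex III takes electrons from reduced coenzyme Q and hands them to cytochrome c, and complex IV passes them on to oxygen. Both pump protons across the inner mitochondrial membrane, and ATP synthase lets the protons back through a rotating ring of c subunits to drive ATP formation. The heart depends on this pathway for most of its ATP. Several nuclear subunits of complex IV exist in a muscle form and a ubiquitous form encoded by separate genes. The catalytic core of complex IV is encoded by mitochondrial DNA and was not analysed here.

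Values were linear intensities that can fall below 0. Intensities under 20 were raised to 20 before the log2 was taken, and a probe set entered the tests with a 5-array mean log2 intensity of 7.13 or more (an intensity of 140.1). Of the 80 probe sets, 43 passed, and they represented 30 of the 42 genes, each by its brightest probe set. In all, 1449 genes and 2301 probe sets were tested. The human annotation names the probe sets while the RNA was from dog, so brightness is a property of each probe set and levels of different genes are not compared.

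No gene of the set passed the adjusted threshold of 0.05 in limma (Benjamini-Hochberg over the 1449 genes tested), where 0.069% of all tested genes did. In 12 of its genes every failing array lay below both control arrays. Among them were CYC1 of complex III, COX5B, COX6C, COX7A1 and COXFA4 of complex IV, and ATP5MC1 and ATP5MC3 of the c-ring of ATP synthase, at 1.46-fold to 1.94-fold lower in failing myocardium. After quantile normalization the groups of ATP5MC1 and ATP5MC3 overlapped. ATP5F1A of the catalytic F1 part of ATP synthase, and COX4I1 and COX5A of complex IV, had means in the other direction. Of the 30 tested genes, 19 had a log2 difference (failing minus control) below 0 and 11 above 0.

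Groups did not overlap for 17 of the 30. In 12 of them all failing values lay below both control values (40%), where 11.8% of all tested genes did, and in 5 all failing values lay above (16.7%), where 19.5% did. After quantile normalization the counts were 11 and 2 (14.3% and 14.7% of all tested genes), and after scaling by the 75th percentile 13 and 4 (17.1% and 12.9%). Bright genes in general lay below control more often, 41.7% of the brightest 5% of all tested genes, and the set holds 7 of these. At an unadjusted p under 0.05, limma gave 7 genes lower, where 3.59% of all tested genes were, and 2 higher, where 6.9% were. The median log2 difference of the 30 was −0.36, against 0.15 for all tested genes. The filter keeps a probe set that is bright in one group alone, as it did the one representing ATP5F1D. These 30 genes thus do not stand for the whole set. Both control values of that probe set were raised to the floor. Leaving ATP5F1D out, 4 of 29 genes lay above (13.8%) and limma gave 1 higher at that unadjusted p. Without the filter all 42 genes enter, the median is −0.04 against 0.05 for all genes, and the counts are 12 below, where 9.11% of all genes are, and 6 above, where 13.2% are.

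**Figure D1:**
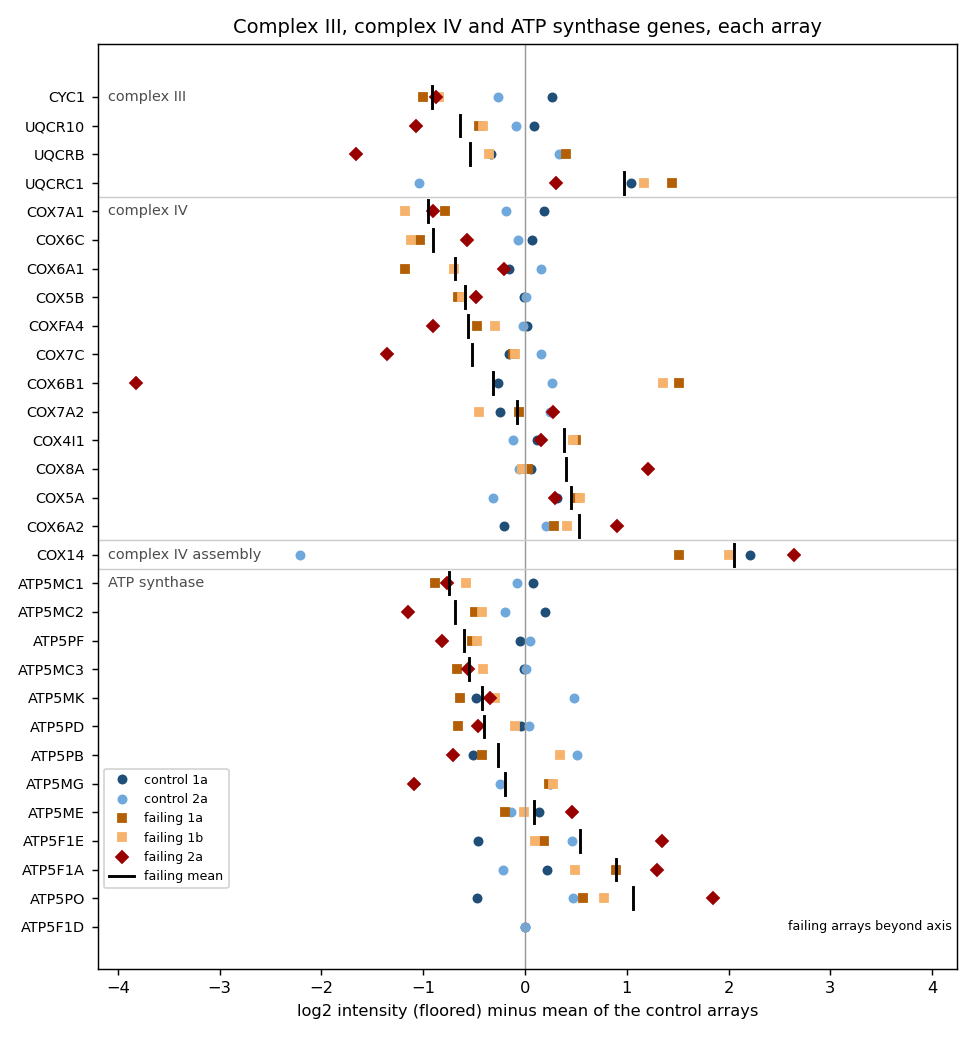
Log2 intensity (raised to the floor of 20 where lower) of each of the 30 tested genes on each array, minus the mean of the 2 control arrays, grouped by complex. Circles are control arrays, squares and diamonds failing arrays, and the black bar is the mean of the 3 failing arrays. In 12 genes every failing symbol lies left of both control circles, and the failing arrays of ATP5F1D are beyond the axis. The 12 include CYC1, COX7A1, COX6C, COX5B and all 3 c-ring genes.

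The arrays did not contribute evenly. The median over the 30 genes, relative to the control mean, was −0.16 on failing 1a, −0.10 on failing 1b and −0.47 on failing 2a, with the control arrays at 0.01 and −0.01. Over all tested genes the same medians were 0.11, 0.13 and 0.42, so the median of the set lay below that of all tested genes on each failing array. Failing 2a was the array farthest from the other failing arrays in 21 of the 30 genes. Failing 1a and 1b differed from each other by a median of 0.18 (absolute log2), against 0.38 between the control arrays and 0.54 and 0.63 between failing 2a and the other failing arrays. Without failing 2a the median over the tested genes of the set was −0.10, with 12 of 31 genes below, where 20.7% of all tested genes were, and 9 above, where 28.6% were.

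By complex, the median log2 difference was −0.59 in complex III (4 tested genes), −0.42 in complex IV (12 tested) and −0.26 in ATP synthase (13 tested). All failing values lay below both controls for 2, 5 and 5 genes (50%, 41.7% and 38.5%), against 11.8% of all tested genes. They all lay above for 0, 2 and 3 genes (0%, 16.7% and 23.1%), against 19.5% of all tested genes. The last 3 include ATP5F1D. On failing 1a, 1b and 2a the median of complex III was −0.02, −0.38 and −0.97, that of complex IV −0.09, −0.20 and −0.35, and that of ATP synthase −0.42, −0.005 and −0.46. The medians near 0, of complex III on failing 1a and of ATP synthase on failing 1b, came from genes on both sides of the control mean. On failing 1a CYC1 and UQCR10 lay below it, and UQCRB and UQCRC1 above. On failing 1b the c-ring genes lay below it (median −0.43), and ATP5F1A (0.49) and ATP5PO (0.78) above, with others on each side. Without failing 2a the medians were −0.20 for complex III, −0.11 for complex IV and −0.10 for ATP synthase, and without the filter 0.00, −0.20 and −0.17. No difference between the complexes was tested.

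In complex III, CYC1 encodes cytochrome c1, the subunit that delivers electrons to cytochrome c. Its intensity was 14783 on control 1a and 10230 on control 2a. On failing 1a, 1b and 2a it was 6143, 6827 and 6694. All 3 failing values lay close together and below both control values, which differed more from each other. The log2 difference was −0.91 ± 0.22 (SE, limma unadjusted p = 0.00733, adjusted p = 0.299). UQCR10, a small subunit, had 6461 and 5701 in control and 4449, 4564 and 2891 in failing myocardium, a log2 difference of −0.64 ± 0.28 (adjusted p = 0.478). Its failing values were also all lower, and failing 2a was the lowest.

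The other 2 tested genes of complex III overlapped between the groups. UQCRB, a small subunit, had 491.1 and 782.9 in control against 819.2, 486.3 and 196.4 in failing myocardium. UQCRC1, which encodes a core protein, had 718.4 and 168.4 in control against 949.1, 780.7 and 428.1. Its control values lay farther apart than its failing values, and without control 2a its log2 difference of 0.97 turned to −0.07. The probe sets of UQCRC2, UQCRH and UQCR11 were too dim to be tested, as was that of CYCS, which encodes cytochrome c itself (209.9 and −72.7 in control, −45.2, −79.8 and −476.4 in failing myocardium).

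In complex IV the failing values of 5 genes lay below both controls. COX7A1, the muscle form of a small subunit, had 19947 and 15407 on control 1a and 2a, and 10180, 7737 and 9357 on failing 1a, 1b and 2a. This was 1.94-fold lower, a log2 difference of −0.96 ± 0.21 (SE, adjusted p = 0.294). COX6C, a structural subunit, had 31333 and 28308 against 14552, 13681 and 20100, and was 1.88-fold lower (−0.91 ± 0.22, adjusted p = 0.299). Here failing 2a was the highest of the failing arrays and still lay below both controls.

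COX5B, which binds zinc at the matrix face of the enzyme, had 40136 and 40801 in control, nearly equal, and 25656, 26347 and 28920 in failing myocardium. It was 1.5-fold lower, with −0.59 ± 0.15 (SE, adjusted p = 0.299). COXFA4, a subunit once assigned to complex I as NDUFA4, had 22785 and 22294 against 16287, 18361 and 12028, 1.47-fold lower (−0.56 ± 0.23, adjusted p = 0.472). In both genes the gap between the groups was wider than the spread of the control arrays. COX6A1, the ubiquitous form of subunit 6A, had 806.4 and 996.7 against 396.6, 554.3 and 777.3 (−0.69 ± 0.50, adjusted p = 0.705).

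**Figure D2:**
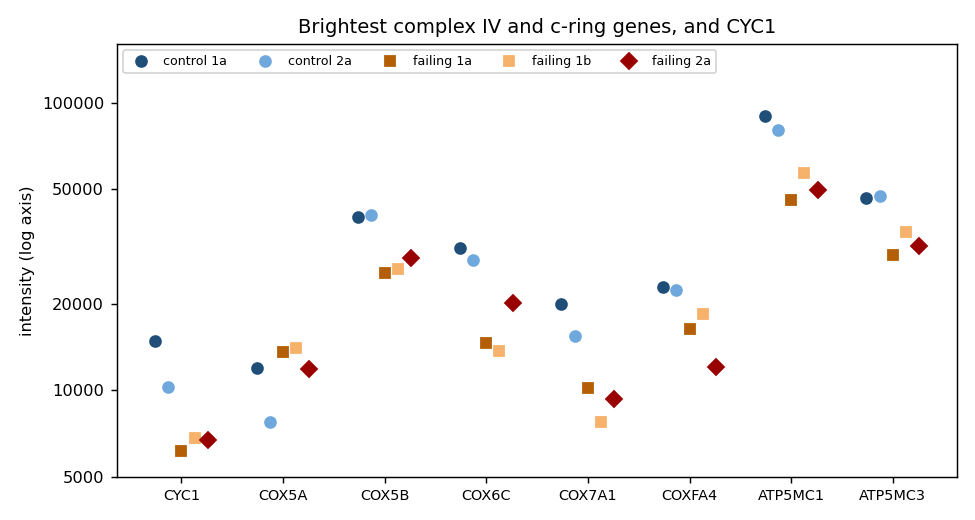
Intensity on a log axis of CYC1 and of the 7 genes of the set that are among the brightest 5% of tested genes, 1 symbol per array. In every gene shown except COX5A the 3 failing arrays lie below both control arrays. COX5A ranged from 7753 to 11936 in control and from 11819 to 14037 in failing myocardium.

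For the other genes of complex IV the groups overlapped or the failing values were higher. COX4I1, the ubiquitous form of the largest nuclear subunit, had 6125 and 5231 in control and 8036, 7866 and 6323 in failing myocardium (0.38 ± 0.21 SE, adjusted p = 0.577). All failing values were higher, but the groups overlapped after quantile normalization and after scaling by the 75th percentile. COX5A, a structural subunit, had 11936 and 7753 against 13623, 14037 and 11819 (0.45 ± 0.24, adjusted p = 0.577), with failing 2a between the control arrays. COX7C, a small subunit, had 1732 and 2144 against 1781, 1794 and 754.1, where only failing 2a was below both controls (−0.52 ± 0.49).

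COX8A, a small subunit, was at 3141 and 2884 in control and at 3061, 2955 and 6974 in failing myocardium. Its log2 difference of 0.40 came from failing 2a, and without that array it was 0.00. COX6B1, a subunit at the intermembrane face, had 235.1 and 339.1 in control against 808.8, 720.6 and −189.0, again with failing 2a apart. COX4I2, an alternative form of subunit 4, and COX7B were too dim to be tested. Among assembly factors COX14 was tested and overlapped, with control values of 752.4 and 34.8 against 461.6, 649.8 and 1013 (its log2 difference of 2.05 turned to −0.16 without control 2a), and the copper-handling factors COX17 and COX19 were too dim.

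Within ATP synthase the genes were grouped by the part of the enzyme they encode, and no difference between the parts was tested. All 3 c-ring genes lay below control on every failing array. Of the F1 part, where ATP is made, ATP5F1A lay above control on every failing array, ATP5F1E overlapped, and ATP5F1D passed the filter only through its failing arrays. The 3 c-ring genes encode the same mature protein. ATP5MC1 had 89736 and 80484 on control 1a and 2a, and 45899, 56777 and 49897 on failing 1a, 1b and 2a, 1.68-fold lower (log2 difference −0.75 ± 0.16 SE, adjusted p = 0.291). ATP5MC3 had 46772 and 47468 against 29595, 35403 and 31860, 1.46-fold lower (−0.55 ± 0.15, adjusted p = 0.329).

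ATP5MC2 had 4160 and 3172 against 2585, 2705 and 1633, 1.61-fold lower (−0.69 ± 0.33, adjusted p = 0.532). The log2 differences of the 3 c-ring genes thus lay between −0.75 and −0.55. The probe set of ATP5MC1 had the highest mean signal of all tested genes. Quantile normalization, which gives the brightest probe sets of every array nearly the same value, moved ATP5MC1 to −0.12 and ATP5MC3 to −0.13 with overlapping groups, while ATP5MC2 had −0.82 and did not overlap. After scaling by the 75th percentile all 3 were below control without overlap, from −0.76 to −0.96.

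In the F1 part, ATP5F1A, the alpha subunit of the head, had 1854 and 1372 in control and 2973, 2240 and 3914 in failing myocardium. Every failing value was higher, 1.86-fold on average (0.89 ± 0.34 SE, unadjusted p = 0.0412, adjusted p = 0.457), and the groups stayed apart under both other scalings. ATP5F1E, a stalk subunit, had 932.1 and 1762 against 1455, 1371 and 3257, with overlap (0.54 ± 0.53), and without control 1a its log2 difference was 0.08 and without failing 2a 0.14. ATP5F1D, another stalk subunit, has a probe set far below 0 in control (−12429 and −21313) and at 4312, 2048 and 9624 on the failing arrays. Its log2 difference of 7.78 is set by the floor and is no fold. Its adjusted p in limma was 0.0713, and it passed without failing 2a (adjusted p = 0.0435) and after scaling by the 75th percentile (adjusted p = 0.0451). With both controls at the floor, these p-values do not measure the spread between the controls. The range over the gene's alternatives was 0.0435 to 0.648. The highest, without failing 1a, belongs to the gene's other probe set, then the brighter, with a log2 difference of 1.96. The gene's other probe set overlapped, with 123.6 and 311.0 against 54.7, 891.5 and 654.2.

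The peripheral stalk, which holds the head still against the turning ring, was mixed. ATP5PF had 4185 and 4484 in control against 3024, 3124 and 2463 (−0.60 ± 0.22 SE, unadjusted p = 0.0397, adjusted p = 0.457), and ATP5PD 3177 and 3345 against 2067, 3054 and 2370 (−0.40 ± 0.26). Both were lower on every failing array, ATP5PD by little on failing 1b. ATP5PO had 135.5 and 259.6 against 277.8, 322.4 and 676.7, higher on every failing array, failing 1a by little (1.07 ± 0.82). Its groups overlapped after quantile normalization. Its other probe sets did not pass the filter, and each was below 0 on 2 arrays. ATP5PB had 3511 and 7123 against 3728, 6354 and 3066 and overlapped.

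The tested membrane subunits ATP5ME, ATP5MG and ATP5MK overlapped, with log2 differences between −0.42 and 0.08. ATP5MG was at 5219 and 3716 in control and at 5191, 5313 and 2071 in failing myocardium, where failing 2a stood apart once more. The sign of ATP5ME was negative under both other scalings. ATP5F1C, ATP5MF, ATP5MJ and the inhibitor gene ATP5IF1 were too dim to be tested. The 12 untested genes had 15 probe sets, each below 0 on 1 or more arrays and 4 below 0 on all.

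The differences moved with the brightness of the probe sets. Of the 72 brightest tested genes (the top 5%), 30 lay below control on every failing array (41.7%) and 7 above, against 90 below (7.76%) and 225 above of the 1160 dimmest. The set held 7 of those 72 genes, and 6 of the 7 lay below. Among the other 65 it was 24 (36.9%), with a median log2 difference of −0.20 against −0.59 for the 7. The brightest signal of an array, apart from array controls, was 89736 and 88049 in control and 56032, 81232 and 72821 in failing myocardium. The part of brightness in the lower values of the set was not tested.

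**Figure D3:**
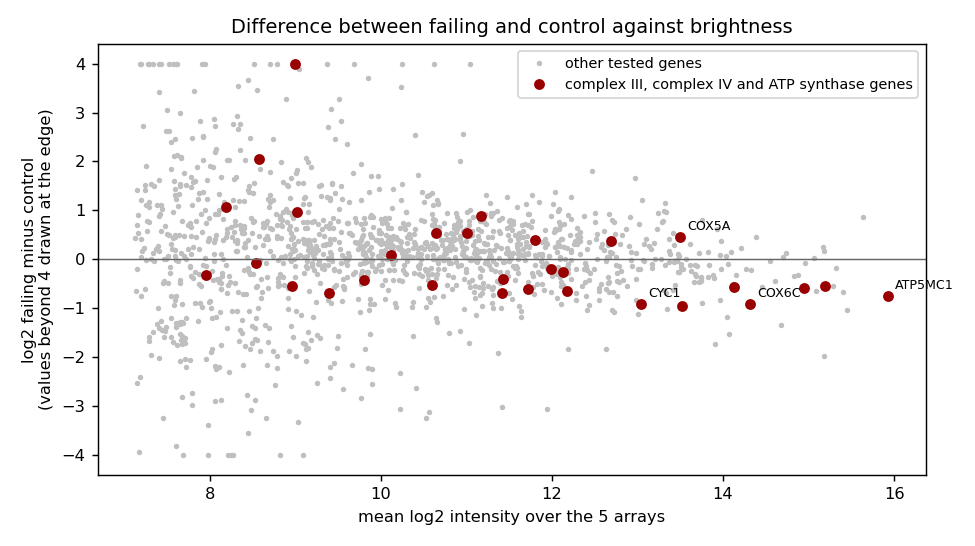
Log2 difference between failing and control arrays against mean log2 intensity for the 1449 tested genes, with the 30 genes of complexes III and IV and ATP synthase in red. The grey points of the brightest genes lie mostly below 0, differences beyond 4 are drawn at the edge, and 6 of the 7 red points in the top 5% of brightness lie without overlap below control.

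Below the top 5% the set was mixed. In the next 15% of brightness 2 of its 6 genes lay below control and 1 above, against 23.2% and 23.7% of the other genes. Of the remaining 17 genes 4 lay below and 4 above, against 7.52% and 19.3% of the others. Precision was lower in the dimmer genes, with a median standard error of 0.23 in the brighter 15 genes of the set and 0.53 in the dimmer 15. A log2 difference of 0.5 is thus near the size of 1 standard error in the dimmer genes.

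Probe sets of the same gene gave a check on single differences. At probe set level no member passed (limma over 2301 probe sets, smallest adjusted p = 0.0667, where 0.0869% of all probe sets passed). Of the 43 tested probe sets 17 lay below control on every failing array, where 11.5% of all did, and 5 above, where 18.2% did. In 11 genes 2 or more probe sets were tested, and the 2 brightest had the same sign in 7 of them (63.6%), where 54.1% of the 357 such genes on the array did. After quantile normalization it was 6 of 11 (54.5%), where 55.4% of all such genes did.

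In ATP5MC1 and COX5B the 2 brightest probe sets both lay below control on every failing array. The second probe set of ATP5MC1 had 33929 and 32734 against 17804, 21622 and 14054, a log2 difference of −0.93 beside −0.75. The second probe set of COX5B had 18777 and 18515 against 15137, 15215 and 17164 (−0.24 beside −0.59), and its other tested probe set overlapped, with failing 1b below 0 (423.3 and 276.2 against 152.2, −133.7 and 337.3). The second probe set of CYC1 had −0.87 ± 1.16 (SE) beside −0.91, with overlap (321.8 and 398.0 against 477.8, 259.0 and 60.5). The second probe set of ATP5PF had −0.44 beside −0.60 and overlapped.

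In 4 genes the signs differed. COX6A2, the muscle form of subunit 6A, was the clearest case. Its brightest probe set had 1431 and 1908 in control against 2012, 2200 and 3089, higher on every failing array (0.53 ± 0.32 SE in the probe set fit), and the next had 2252 and 2025 against 1331, 1303 and 1397, lower on every failing array (−0.67 ± 0.27). Neither passed (adjusted p = 0.676 and 0.522), and the groups of the brightest overlapped after quantile normalization. Its remaining tested probe set was below 0 on 2 arrays and overlapped. The direction of COX6A2 is therefore not settled by these data.

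COX8A had 0.40 at one probe set and, at the other, control values of 1292 and 1593 against −43.5, −298.9 and 871.5. UQCR10 had −0.64 at the bright probe set and 0.46 at a dim one, and ATP5PB −0.26 and 0.70. The second probe set of COX7C lay below control on every failing array (532.9 and 1388 against 392.3, 158.5 and −200.5), in the same direction as the first. COX7A1, COX6C, COX4I1 and ATP5F1A each had 1 tested probe set, and their others did not pass the filter. The other probe sets of COX6C and ATP5F1A were below 0 on all 5 arrays. Those of COX7A1 were each below 0 on 2 or on all 5 arrays, and that of COX4I1 on 2. These 4 genes thus rest on 1 probe set each. So do others, among them ATP5MC2, ATP5PO and UQCRC1, whose other probe sets did not pass the filter. That of ATP5MC2 was below 0 on 4 arrays. That of UQCRC1 had 303.8 and 520.1 in control against −89, −177.5 and 329.2 in failing myocardium.

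**Figure D4:**
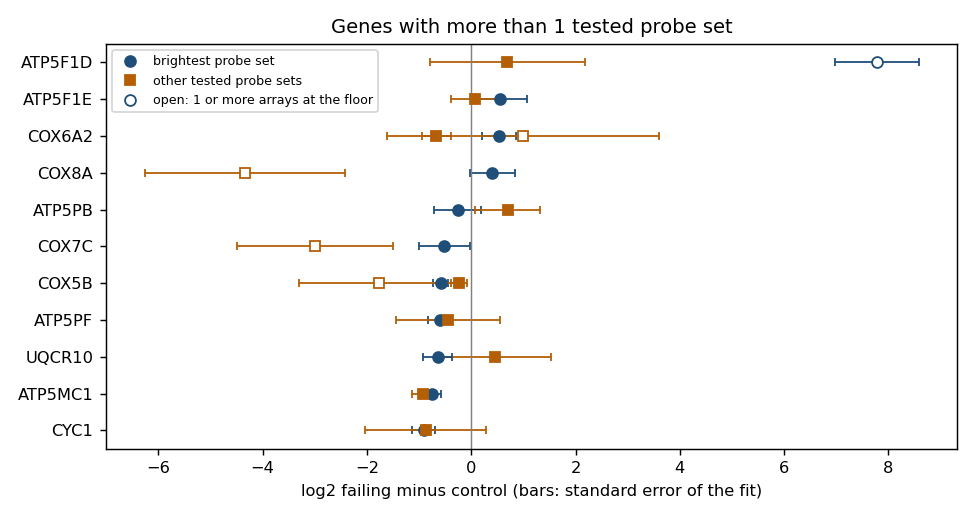
Log2 difference of each tested probe set, with the standard error of the probe set fit, for the 11 genes with more than 1 tested probe set. Circles are the brightest probe set of a gene, squares the others, and open symbols had 1 or more arrays raised to the floor. The symbols of CYC1 nearly coincide, while those of COX6A2 lie on both sides of 0.

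Muscle and ubiquitous forms were compared through the log2 ratio of the 2 genes within each array, in the 2 pairs with both genes tested. The ratio of COX7A1 to COX7A2 was 5.94 and 5.07 on control 1a and 2a, and 4.78, 4.78 and 4.32 on failing 1a, 1b and 2a. It was thus lower on every failing array, by a mean of 0.88 in log2 (5.51 ± 0.61 SD in control, n = 2, and 4.63 ± 0.27 in failing myocardium, n = 3). The two-sided exact permutation test gave p = 0.2 (adjusted over 2 pairs 0.2), which is as low as a design of 2 against 3 arrays allows.

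COX7A2 itself had 325.6 and 457.6 in control and 370.6, 281.4 and 468.0 in failing myocardium, with overlap (log2 difference −0.08 ± 0.64 SE). At that error a difference as large as that of COX7A1 was not detectable for COX7A2. The difference of the ratio was −0.45 without control 1a and −1.31 without control 2a, so its size rests on which control is used. Another COX7A2 probe set, under the filter, had 347.7 and 96.4 in control and 36.7, 84.7 and 24.7 in failing myocardium. It lay below both controls on every failing array. The ratio was not computed with that probe set, so its direction there was not tested.

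For COX6A2 and COX6A1 the ratio was higher on every failing array at the brightest COX6A2 probe set, from 0.83 and 0.94 in control to 2.34, 1.99 and 1.99 in failing myocardium, a mean difference of 1.22 (0.88 ± 0.08 SD, n = 2, and 2.11 ± 0.20, n = 3, exact permutation p = 0.2). With the other COX6A2 probe set the ratio was 1.48 and 1.02 against 1.75, 1.23 and 0.85, a difference of 0.02 with overlapping groups (exact permutation p = 1). No common direction of muscle against ubiquitous forms was seen over the 2 pairs. The pair COX4I2 and COX4I1 could not be compared, since COX4I2 was too dim.

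**Figure D5:**
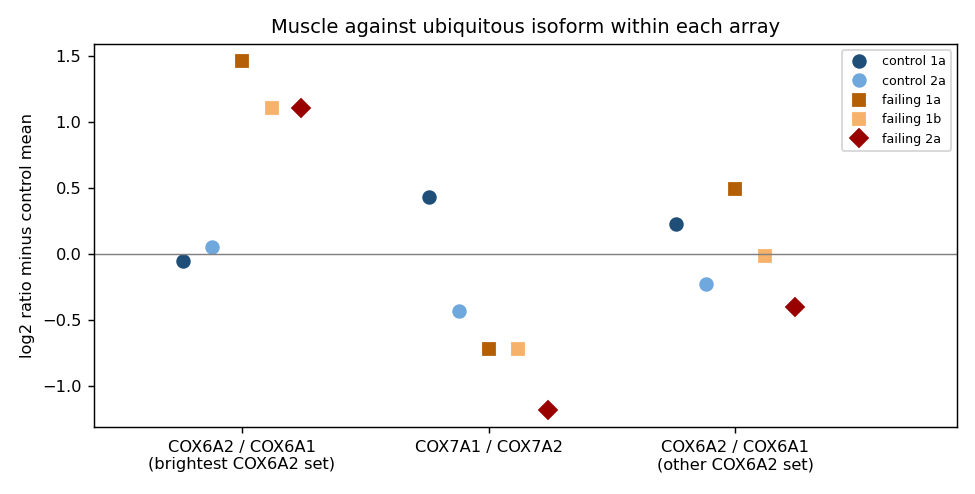
Log2 ratio of the muscle to the ubiquitous form on each array, minus the control mean, for COX6A2 over COX6A1 with each of 2 COX6A2 probe sets and for COX7A1 over COX7A2. Columns from left to right are COX6A2 over COX6A1 (brightest set), COX7A1 over COX7A2, and COX6A2 over COX6A1 (other set). The failing arrays lie above both controls in the first, below both in the second, and in the third 1 failing array lies above both controls, 1 between them and 1 below both.

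Other genes of the pathway were described by lists. Of 30 complex I genes, 26 were tested and 0 passed. The failing values lay below both controls for 10 (38.5%, against 11.8% of all tested genes) and above for 2 (7.69%, against 19.5%). The median log2 difference was −0.26. NDUFS4, NDUFA1 and NDUFA8, subunits of complex I, had −0.89 ± 0.22, −1.0 ± 0.25 and −0.95 ± 0.26 (SE, adjusted p between 0.299 and 0.315). In complex II, SDHC was tested and had 0.05 ± 0.38. Of 6 tested carriers and pore proteins 1 lay below (16.7%), SLC25A4, the ATP and ADP exchanger of muscle (−0.41 ± 0.18). Another 1 lay above (16.7%), the outer membrane pore VDAC3 (0.51 ± 0.24). Groups overlapped for the 3 tested assembly genes LRPPRC, SCO2 and SURF1, and for YY1, the 1 tested regulator. No gene of these lists passed the adjusted threshold.

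The tissue label and the array controls were checked on the same arrays. The 9 tested cardiomyocyte markers had intensities summing to 122270 and 129280 in control and 100100 to 114310 in failing myocardium. In 3 of them (33.3%) all failing values lay below both control values, where 11.8% of all tested genes did. In 1 (11.1%) they all lay above, where 19.5% did. The median log2 difference of the 9 was 0.03. The 3 were the ventricular light chain MYL3 (−0.55 ± 0.19 SE), the giant sarcomere protein gene TTN (−0.62 ± 0.25) and myoglobin, MB (−0.51 ± 0.20). Differences were above 0 for 5 of the 9, from 0.03 to 1.35, among them the calcium release channel gene RYR2, whose failing values were all above control (0.66 ± 0.60, named after its values were seen). Summed intensities of 4 endothelial markers were 1489 and 1632 in control and 2497 to 2990 in failing myocardium, and those of 5 fibroblast markers 2323 and 3920 against 4206 to 6400. The endothelial CDH5, VWF and TIE1 lay above control on every failing array (75%, against 19.5% of all tested genes), while TEK overlapped. Among fibroblast markers COL3A1 and COL1A2 lay above (40%), while COL1A1, LUM and PDGFRA overlapped. Skeletal muscle markers (4 tested) summed to 2131 and 2276 against 1018 to 8065, blood markers (2) to 3301 and 5270 against 4424 to 5549, and smooth muscle and adipocyte markers had 1 tested gene each, below control. No leukocyte marker was bright enough to be tested.

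In such bulk samples fewer heart muscle cells and less RNA per cell cannot be told apart. For GAPDH, a marker of RNA integrity on the array, the 3′ over 5′ signal ratio was 2.15 and 2.32 in control and 1.42, 1.44 and 1.32 in failing myocardium. For actin it was 0.0899 and 0.108 against 0.192, 0.0873 and 0.205. The part of cell makeup and of RNA quality in the differences above was not tested.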

How the data were processed

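Each of the 5 RNA samples was hybridised to its own array. The deposited table holds 1 intensity per probe set and array, on a linear scale. Its software and normalization are not given in the sources used here. The authors' values have a trimmed mean of 800 on every array (2% removed at each end), and 34.7% to 39.9% per array are negative. Columns of other samples numbered 0.

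Array controls (52 probe sets) were left out, and 805 of the other probe sets had no symbol and 72 several. No further scaling was applied. After the floor of 20 and log2, the filter was the median mean log2 intensity. The comparison used the lmFit and eBayes functions of limma 3.58.1 under R 4.3.3, with a trend in intensity and two-sided p-values. Adjustment was by Benjamini-Hochberg over all 1449 genes. The code was tested on simulated data. Folds are powers of 2 of log2 differences and are given only where all 5 arrays are above the floor. Described in full are the isoform pairs, genes with an unadjusted p under 0.05 or several tested probe sets, and the 3 genes per complex with the largest moderated statistic. The alternatives were 15 planned settings. The genes, lists and tests were chosen with earlier results of these data known, and the brightness classes and the split of ATP synthase by role after the values were seen. No genome build belongs to the table, and no coordinates or sequences are given. The number of arrays limits the precision.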

Additional observations from a re-analysis of the deposited data

How the results depend on the processing

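Over 15 planned settings, the count of tested genes of the set below both controls on every failing array stayed between 11 and 15, and that above between 2 and 9. It was 3 above with the filter at the 75th percentile and 2 after quantile normalization, and 5 to 9 when 1 array was left out (9 without control 1a and 9 without failing 2a). With 1 control array left, all tested genes also separate more often (19.5% below and 32.4% above without control 1a). The number of all genes passing the adjusted threshold was 0 with a floor of 5, the filter at the 75th percentile, quantile normalization, the mean of probe sets, or failing 1a and 1b averaged. It was 5 without the filter, 2 after scaling by the 75th percentile, 3 without the intensity trend and 0 to 13 with 1 array left out (13 without failing 2a). Of the set, ATP5F1D, with both controls at the floor, passed after that scaling and without failing 2a, and no other member in any setting. The median of the set was −0.04 without the filter, −0.54 after scaling by the 75th percentile and −0.56 to −0.1 with 1 array left out. Relative to all tested genes it was −0.09 without the filter, −0.33 after quantile normalization and −0.78 to −0.2 with 1 array left out. The median of all tested genes moved from 0.15 to 0.00 under quantile normalization and −0.06 under the 75th percentile.

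The COX6A2 to COX6A1 difference was 0.98 with the mean of probe sets and 0.02 with the other COX6A2 probe set, a setting chosen after seeing the data. That of COX7A1 to COX7A2 ranged from −1.31 to −0.45 with 1 array left out. The sign agreement of probe sets, recomputed under the planned settings after seeing the data, held in 15 of 26 genes without the filter (57.7%, against 51.7% of all such genes) and in 2 of 4 with the filter at the 75th percentile (50%, against 52.3%). Signs turned for ATP5PB (0.22) and COX8A (−1.97) with the mean of probe sets and for COX7A2 (0.01) with failing 1a and 1b averaged. With 1 array left out, ranges that crossed or reached 0 were −0.77 to 0.25 for ATP5PB, −0.16 to 4.27 for COX14, −0.32 to 0.17 for COX7A2, 0 to 0.62 for COX8A and −0.07 to 2.02 for UQCRC1. The cause of these moves was not tested. Across 1449 genes, control 1a minus 2a had a correlation of r = 0.0119 with failing 1 (mean of 1a and 1b) minus 2a. With 2 pairs this cannot show whether same-numbered arrays share more than a number. With the replicate block 1 gene passed, the set had 12 genes below and 5 above, and COX7A2 was at 0.01.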
